A study of Mus musculus with 26 samples.

Results

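Oocytes labelled Tet3 knockout (Tet3 KO) were compared with wild-type (WT) oocytes of the same sequencing batch, across all genes of the count table. The comparison was defined by the labels alone: the 2 libraries labelled Tet3 KO against WT 5 and WT 6, all of batch 3, which are 4 of the 26 libraries in the series. A further 2 columns, labelled as a Tet1, Tet2 and Tet3 knockout, held the same count as the 2 Tet3 KO columns in every gene and were not used. Each library came from polyadenylated RNA of a pool of 10 mouse germinal vesicle (GV) oocytes, which have finished growing but have not yet resumed meiosis. The labels call the pools biological replicates. They do not say whether the pools came from separate animals, so the p-values measure the spread between pools.

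The genotype given for Tet3 KO was Tet3f/f; Zp3-Cre, and that given for WT was Tet3 LCDf/f with no Cre. WT oocytes therefore carried another floxed allele of Tet3, around its low-complexity domain (LCD), and the 2 groups differed in the Cre transgene as well as in the floxed allele. These differences cannot be told apart in a comparison with WT. For this reason the libraries labelled Tet3 KO were also compared with the 3 other groups of batch 3, all of which carried Zp3-Cre: Dnmt3a KO (Dnmt3af/f; Zp3-Cre), LCD KO (Tet3 LCDf/f; Zp3-Cre) and the double knockout DKO (Dnmt3af/f, Tet3 LCDf/f; Zp3-Cre), with 2 libraries each. Some checks used all 22 libraries with a stated batch. These add WT and LCD KO libraries of other batches and libraries of a further mutant group, labelled HD. The labels name no age or strain of the animals. Zp3-Cre is driven by the promoter of a zona pellucida gene and deletes floxed DNA in growing oocytes, so ovarian somatic cells are not its target.

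TET3 is a dioxygenase that oxidises methylated cytosine, and it is the member of its family that the oocyte stores for the zygote. DNMT3A, with its partner DNMT3L, lays down most of the DNA methylation of the growing oocyte, largely across transcribed gene bodies, and this includes the maternal imprints. Transcription in oocytes pauses near the end of growth, so the RNA of a GV oocyte is mainly a stored pool made earlier.

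The 2 libraries labelled Tet3 KO had 3914953 and 3514678 counts, WT 5 and WT 6 had 3030716 and 3292247, and the 10 libraries of batch 3 ranged from 2558479 to 4144414. Between 13761 and 14535 genes were detected per library. The libraries of a group differed by more than sampling noise, by 6.46 for Tet3 KO and 9.19 for WT as chi-square over its degrees of freedom. This is more than the same library sequenced again would give. It cannot tell separate pools from separate libraries made of the same pool, so that question rests on the labels. Rn45s, a ribosomal RNA precursor, took 0.219% and 0.227% of the counts in the libraries labelled Tet3 KO and 0.0646% and 0.167% in WT. Its part in the results was not tested. Levels are CPM, counts scaled to library size, normalised with trimmed mean of M-values (TMM) factors and not divided by gene length, so they are compared within a gene only. Differences are log2 fold changes ± standard error, and a gene was called where the edgeR quasi-likelihood test gave a Benjamini-Hochberg adjusted p below 0.05 over all 11160 genes tested.

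Tet3 was not lower under the Tet3 KO label. Its level was 178 and 247 CPM in WT 5 and WT 6 and 291 and 406 CPM in the libraries labelled Tet3 KO, a log2 difference of 0.71 ± 0.26 that did not pass the test (adjusted p = 0.359). The Tet3 KO libraries lay above both WT libraries, and Dnmt3a KO had a like level of 263 and 425 CPM. By contrast LCD KO had 61.1 and 83.3 CPM and DKO 73.8 and 65.2 CPM of Tet3. Against the mean of these 3 groups with Zp3-Cre, Tet3 was higher in the libraries labelled Tet3 KO by a log2 difference of 1.54 (adjusted p = 0.000486). A count per gene sums all exons and cannot show whether reads of a deleted part were missing.

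Dnmt3a, in contrast, fell under the Tet3 KO label. It stood at 351 and 391 CPM in WT and at 158 and 119 CPM in the libraries labelled Tet3 KO, a fall of 1.42 ± 0.22 on the log2 scale (adjusted p = 0.00136). No Tet3 KO library overlapped WT, which also held for 40.1% of all tested genes. In pooled oocytes, fewer oocytes with a transcript and less of it per oocyte cannot be told apart. Without Tet3 KO 2 the log2 difference was -1.23 and missed the threshold (adjusted p = 0.0811). Dnmt3a KO held 149 and 121 CPM and DKO 112 and 111 CPM, whereas LCD KO held 464 and 410 CPM. The log2 difference between the libraries labelled Tet3 KO and Dnmt3a KO was 0.04 ± 0.22 (adjusted p = 0.965). The Tet3 count thus showed no fall under the label, which does not decide whether a part of Tet3 was deleted. For Dnmt3a the level was near that of Dnmt3a KO. Every change below is reported for the libraries labelled Tet3 KO and not for loss of Tet3.

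The level that most set these libraries apart from every other library of batch 3 was that of Pnpla3, a gene for a patatin-like phospholipase that acts on lipid droplets. Its level was 360 and 475 CPM in WT and 2.82 and 2.50 CPM in the libraries labelled Tet3 KO, which rest on 11 and 9 counts. The fall was 7.27 ± 0.31 on the log2 scale (adjusted p = 5.18e-11). Every other library of batch 3 held at least 300 CPM: 316 and 364 in Dnmt3a KO, 692 and 814 in LCD KO, and 300 and 345 in DKO. The table also has rows named RGC-CRE and RGC-GFP. RGC-CRE was at 0 counts in both WT libraries and at 17.7 and 15.3 CPM in the libraries labelled Tet3 KO, within the 14.5 to 24.0 CPM of the other groups with Zp3-Cre, so the Cre row went with the labels. RGC-GFP was at 0.712 and 0 CPM in WT and 2.31 and 0 CPM in Tet3 KO, beside 2.06 and 0 CPM in Dnmt3a KO, 28.4 and 10.5 CPM in LCD KO and 34.0 and 22.9 CPM in DKO. It was high in the 2 groups with both the floxed LCD allele and Cre.

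**Figure D1:**
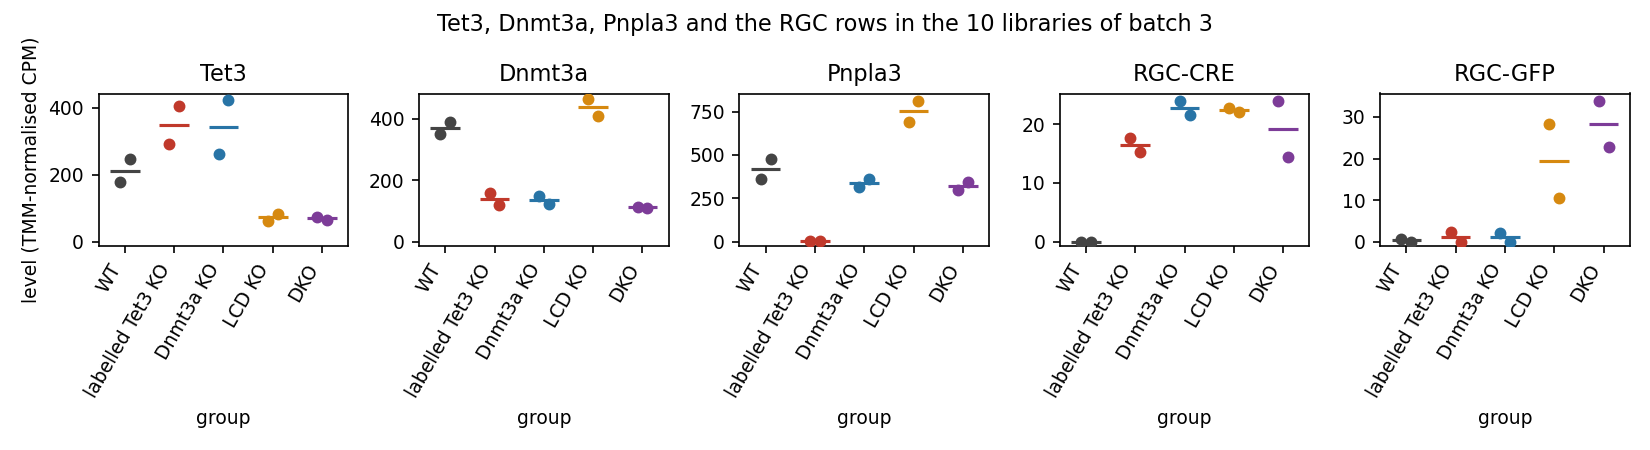
Levels (TMM-normalised CPM, vertical axis, a separate scale in each panel) of Tet3, Dnmt3a, Pnpla3 and the RGC-CRE and RGC-GFP rows in the 5 groups of batch 3. Points are libraries (2 per group) and bars their mean; Pnpla3 lies at 2.82 and 2.50 CPM in the libraries labelled Tet3 KO and at 300 CPM or more elsewhere, while Tet3 is low in LCD KO and DKO.

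The other TET and DNMT genes did not pass the test. Tet1 had 8.54 and 5.12 CPM in WT and 3.08 and 3.06 CPM in those labelled Tet3 KO (adjusted p = 0.578). Tet2 had 3.56 and 4.82 CPM in WT and 6.16 and 9.45 CPM in Tet3 KO (adjusted p = 0.697). For Dnmt3b, a second de novo methyltransferase, the levels were 18.5 and 17.2 against 26.4 and 35.0 CPM (adjusted p = 0.465). Dnmt3l, the cofactor of DNMT3A, had 241 and 198 against 205 and 157 CPM (adjusted p = 0.851), and Dnmt1, the maintenance methyltransferase, 842 and 784 against 1005 and 976 CPM (adjusted p = 0.864).

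Against WT, 114 of 11160 genes were called (1.02%), 41 higher (0.367%) and 73 lower (0.654%) in the libraries labelled Tet3 KO. All 41 rises and 70 of the 73 falls were at least 2-fold on the fitted scale, and 12 rises and 28 falls were at least 8-fold. The median log2 difference of all tested genes was -0.001. At an unadjusted p below 0.05 the test gave 954 genes (8.55%). The Tet3 KO and WT libraries did not overlap in 40.1% of all tested genes. The count rested on both pools of each group: it was 62 without Tet3 KO 1, 56 without Tet3 KO 2 and 62 without WT 5.

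**Figure D2:**
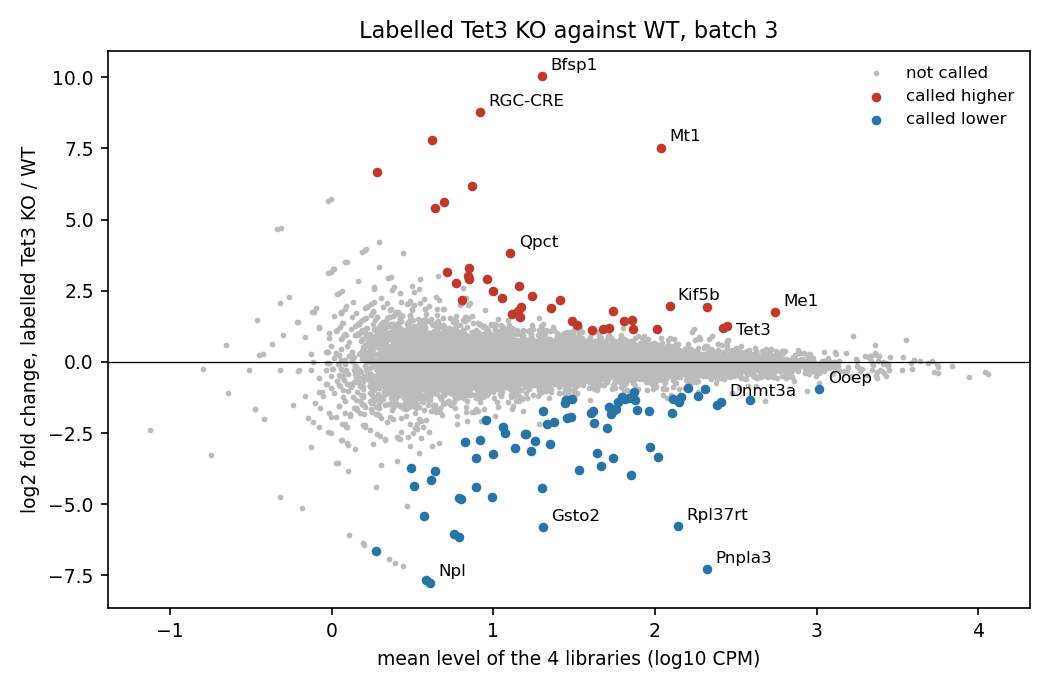
Log2 fold change of the libraries labelled Tet3 KO over WT (vertical axis) against the mean level of the 4 libraries (horizontal axis, log10 CPM) for the tested genes; 2 tested genes with no count in these libraries are not drawn. Red points are the 41 genes called higher and blue points the 73 called lower; Bfsp1, RGC-CRE and Mt1 lie at the top and Pnpla3, Rpl37rt and Gsto2 well below the rest of the genes at their level.

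The promoter windows of 5 genes are shown with the CG dinucleotide, the substrate of DNA methyltransferases, marked. The genes were picked after their values were seen, and a link between promoter CG and their levels was not tested. Pnpla3 and Gsto2 were low in Tet3 KO alone, Npl and Pxdn were low in Tet3 KO and in Dnmt3a KO, and Bfsp1 was high in Tet3 KO and in DKO. Npl was also below WT, at 7.83 and 8.43 CPM, in LCD KO (2.49 and 3.22 CPM) and in DKO (0.849 and 3.05 CPM). Each window runs from 250 bases before to 50 bases after the gene's start in RefSeq on GRCm38.p6, 5′ to 3′ on the gene's strand, with each CG in capitals. The windows are chr15:84167566-84167865 (plus strand) for Pnpla3, chr19:47865295-47865594 (plus strand) for Gsto2, chr1:153549665-153549964 (minus strand) for Npl, chr12:29937786-29938085 (plus strand) for Pxdn and chr2:143863124-143863423 (minus strand) for Bfsp1.
Pnpla3: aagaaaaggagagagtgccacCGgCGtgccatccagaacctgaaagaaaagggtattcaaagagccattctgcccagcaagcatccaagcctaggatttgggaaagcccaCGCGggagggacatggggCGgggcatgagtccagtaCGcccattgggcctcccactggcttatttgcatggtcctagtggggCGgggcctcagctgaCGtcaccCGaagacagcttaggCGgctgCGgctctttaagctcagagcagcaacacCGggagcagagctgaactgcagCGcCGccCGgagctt
Gsto2: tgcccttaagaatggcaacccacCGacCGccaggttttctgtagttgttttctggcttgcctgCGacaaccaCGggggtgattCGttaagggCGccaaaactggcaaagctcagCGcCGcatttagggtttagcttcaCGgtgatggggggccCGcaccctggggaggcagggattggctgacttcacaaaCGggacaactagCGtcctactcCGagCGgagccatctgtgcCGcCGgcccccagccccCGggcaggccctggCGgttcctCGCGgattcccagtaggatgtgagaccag
Npl: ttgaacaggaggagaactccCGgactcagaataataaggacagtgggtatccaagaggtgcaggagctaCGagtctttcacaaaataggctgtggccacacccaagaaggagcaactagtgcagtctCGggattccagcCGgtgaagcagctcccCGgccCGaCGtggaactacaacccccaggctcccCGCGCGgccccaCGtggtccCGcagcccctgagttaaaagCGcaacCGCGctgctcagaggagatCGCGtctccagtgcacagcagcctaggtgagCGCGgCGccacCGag
Pxdn: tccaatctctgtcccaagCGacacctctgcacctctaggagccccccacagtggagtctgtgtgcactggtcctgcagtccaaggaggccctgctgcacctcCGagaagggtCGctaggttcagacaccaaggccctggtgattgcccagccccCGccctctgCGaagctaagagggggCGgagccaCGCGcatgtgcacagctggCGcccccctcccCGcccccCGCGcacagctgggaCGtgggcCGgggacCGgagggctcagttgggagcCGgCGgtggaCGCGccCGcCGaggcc
Bfsp1: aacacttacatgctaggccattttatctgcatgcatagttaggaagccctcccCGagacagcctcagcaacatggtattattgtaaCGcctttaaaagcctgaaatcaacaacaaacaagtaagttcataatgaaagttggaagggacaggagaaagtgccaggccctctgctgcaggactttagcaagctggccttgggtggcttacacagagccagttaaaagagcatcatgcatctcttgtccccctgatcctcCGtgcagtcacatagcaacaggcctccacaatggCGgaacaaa
The CG dinucleotide was counted on the gene's strand, and it reads the same on the other strand. The windows hold 15 CG in Pnpla3, 20 in Gsto2, 21 in Npl, 21 in Pxdn and 4 in Bfsp1. Of all 27025 promoter windows in the table, 94.2% hold at least 1 CG. A window was found for 60 of the 73 genes that fell (82.2%), with a median of 16 CG beside 21 over the 9032 tested genes with a window. For the genes that rose a window was found for 29 of 41 (70.7%), under the 80% needed, so that check is void. Methylation was not measured in these libraries.

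Among the falls, several genes had few or no counts left in the libraries labelled Tet3 KO. Rpl37rt, a retrotransposed copy of the ribosomal protein gene Rpl37, had 296 and 248 CPM in WT and 3.59 and 6.39 CPM in Tet3 KO, a fall of 5.76 ± 0.30 (log2, adjusted p = 6.37e-10). Reads of such a copy and of its parent gene can be split by the counting, so its level is uncertain. Gsto2, an omega-class glutathione transferase, had 46.3 and 33.4 CPM in WT and 0 and 1.39 CPM in Tet3 KO (fall of 5.81 ± 0.65, adjusted p = 0.000178). The naming rule required that the libraries of the 2 groups did not overlap, so the separation of these genes adds no evidence.

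Genes for transporters and enzymes were also among them. Npl, the N-acetylneuraminate lyase that breaks down sialic acid, had 7.83 and 8.43 CPM in WT and no count in Tet3 KO, at least 20.4-fold lower when 3 counts are taken as the floor over the group (adjusted p = 0.00348). Its call was lost without Tet3 KO 1 (adjusted p = 0.0505). Pdgfrl, a receptor-like relative of the PDGF receptors, had 11.7 and 3.61 CPM in WT and none in Tet3 KO, at least 18.3-fold lower (adjusted p = 0.00289). Slc17a6, a vesicular glutamate transporter, was at 3.92 and 3.61 CPM in WT and at 0 in Tet3 KO, at least 9.37-fold lower (adjusted p = 0.0284). The call of Slc17a6 rested on every library, with an adjusted p of 0.257 without Tet3 KO 1, 0.224 without Tet3 KO 2, 0.126 without WT 5 and 0.0832 without WT 6.

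Of the genes with 1 to 3 counts left in Tet3 KO, Pxdn, a peroxidase of the extracellular matrix, had 12.5 and 10.2 CPM in WT and 1 count in Tet3 KO, a ratio of 84.4 with a 95% counting interval of 14.6 to 3380. Cldn34d, a claudin of a small gene family, had 15.7 and 8.43 CPM in WT and 1 count in Tet3 KO, a ratio of 88.0 (15.3 to 3525). The anion exchanger gene Slc4a3 had 12.5 and 12 CPM in WT and 3 counts in Tet3 KO, a ratio of 30.6 (10.1 to 152). Cep250, a centrosomal linker gene, had 14.2 and 9.64 CPM in WT and 3 counts in Tet3 KO, a ratio of 29.3 (9.65 to 146). These intervals cover counting error only. Fmo6, a flavin-containing monooxygenase gene, had 41.3 and 35.5 CPM in WT and 2.57 and 0.834 CPM in Tet3 KO (fall of 4.44 ± 0.47, adjusted p = 2.08e-05). Pak3, a p21-activated kinase gene, had 14.2 and 15.7 CPM in WT and 0.513 and 0.834 CPM in Tet3 KO (fall of 4.41 ± 0.70, adjusted p = 0.00185). Calls of these 6 genes held when any 1 of the 4 libraries was left out, although over the 22 libraries with a stated batch Slc4a3 was not called (adjusted p = 0.315).

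The rises were led by Bfsp1, which codes for filensin, a beaded filament protein of the eye lens. It had 0 counts in both WT libraries and 41.1 and 39.2 CPM in the libraries labelled Tet3 KO, at least 82.1-fold higher (adjusted p = 2.44e-06). Bfsp1 was also at 0 in both Dnmt3a KO and both LCD KO libraries, and it stood at 31.4 and 33.9 CPM in DKO. It was thus present in 2 groups of batch 3 and without a count in the other 3. Mt1, a metallothionein gene, had 1.07 and 1.20 CPM in WT and 219 and 217 CPM in Tet3 KO, a rise of 7.53 ± 0.39 (adjusted p = 6.37e-10). All other groups with Zp3-Cre held between 195 and 315 CPM of Mt1, and the log2 difference of Tet3 KO from their mean was -0.19 (adjusted p = 0.726). The RGC-CRE row rose at least 33.8-fold. Qpct, which codes for glutaminyl cyclase, had 2.49 and 0.904 CPM in WT and 22.6 and 25 CPM in Tet3 KO (rise of 3.82 ± 0.52, adjusted p = 0.00041).

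The remaining large rises had low levels in WT and calls that depended on single libraries. Olfr283, an olfactory receptor gene, had no count in WT and 5.39 and 2.22 CPM in Tet3 KO, at least 7.91-fold higher (adjusted p = 0.0383). It lost its call without Tet3 KO 1 (adjusted p = 0.32), without WT 5 (0.246) and without WT 6 (0.196). Fam124a, whose function is little known, had 0 and 2.41 CPM in WT and 12.3 and 13.3 CPM in Tet3 KO (adjusted p = 0.017), and lost its call without Tet3 KO 1 (0.0597), Tet3 KO 2 (0.0866) or WT 5 (0.169). Arl8a, a small GTPase of lysosomes, had 1.78 and 0.301 CPM in WT and 8.21 and 10.3 CPM in Tet3 KO (adjusted p = 0.0136), and lost it without Tet3 KO 2 (0.104) or WT 6 (0.178). Vangl1, a planar cell polarity gene, went from 2.14 and 0.904 CPM to 15.4 and 9.45 CPM (adjusted p = 0.0222) and lost it without Tet3 KO 1 (0.294), WT 5 (0.0953) or WT 6 (0.217). AA465934 went from 1.07 and 3.01 CPM to 13.9 and 18.6 CPM (adjusted p = 0.0262) and lost it without any 1 of the 4 libraries (0.0572 to 0.322). Sapcd2, a gene of spindle orientation, went from 1.42 and 1.51 CPM to 12.1 and 8.62 CPM (adjusted p = 0.00896) and lost it without Tet3 KO 1 (0.12), WT 5 (0.128) or WT 6 (0.0981).

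**Figure D3:**
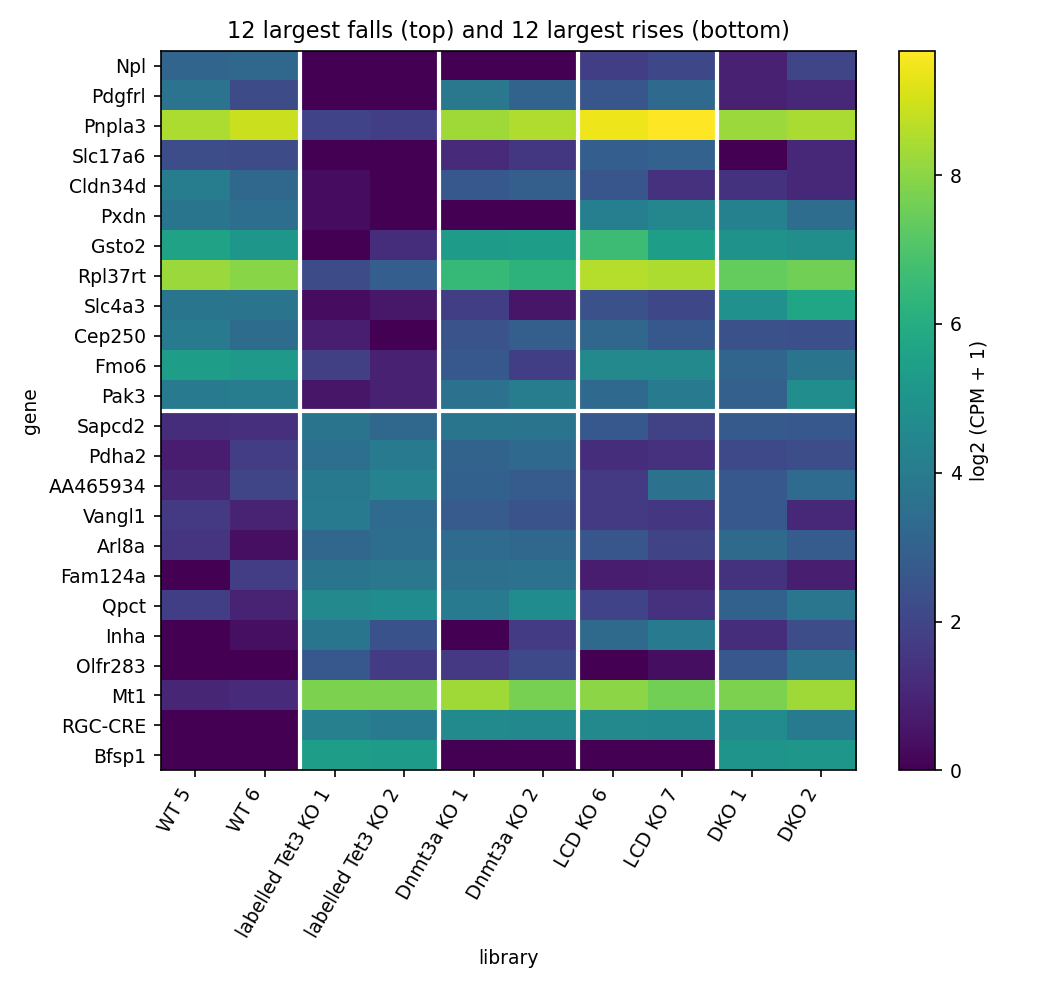
Levels (log2 of CPM + 1, colour scale) of the 12 largest named falls (upper rows) and the 12 largest named rises (lower rows) against WT, in the 10 libraries of batch 3 (columns, groups divided by white lines). Pnpla3, Gsto2 and Rpl37rt are dark in the libraries labelled Tet3 KO and bright in the others; Mt1 and RGC-CRE are dark in WT alone, and Bfsp1 is bright in Tet3 KO and DKO.

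Among the called falls with the highest mean CPM, which also include Pnpla3 and Dnmt3a, 4 differed by a log2 value between -1.52 and -0.95. Ooep, a member of the subcortical maternal complex, went from 1463 and 1286 CPM in WT to 693 and 727 CPM in Tet3 KO (fall of 0.95 ± 0.21, adjusted p = 0.0324). Mgst3, a microsomal glutathione transferase, went from 597 and 522 CPM to 235 and 204 CPM (fall of 1.35 ± 0.28, adjusted p = 0.0198). Bcap31, an endoplasmic reticulum protein gene, went from 438 and 278 CPM to 129 and 122 CPM (fall of 1.52 ± 0.25, adjusted p = 0.00215). Pebp1, an inhibitor of RAF signalling, went from 241 and 295 CPM to 142 and 135 CPM (fall of 0.95 ± 0.21, adjusted p = 0.024). In all 4 genes the Tet3 KO libraries lay below both WT libraries, while 40.1% of all tested genes showed no overlap of these libraries. The calls of Ooep (0.0653 to 0.408), Mgst3 (0.0523 to 0.263) and Pebp1 (0.062 to 0.331) were lost without any 1 of the 4 libraries, and that of Bcap31 without Tet3 KO 2 (0.0548) or WT 5 (0.0678), each figure being the adjusted p.

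Beside Mt1, metabolic and motor protein genes were among the abundant rises. Me1, the cytosolic malic enzyme that makes NADPH, went from 204 and 302 CPM in WT to 809 and 902 CPM in Tet3 KO (rise of 1.76 ± 0.32, adjusted p = 0.00854). Kif5b, a kinesin heavy chain, went from 46.6 and 54.5 CPM to 183 and 208 CPM (rise of 1.95 ± 0.24, adjusted p = 0.000131). Mtfr2, a regulator of mitochondrial fission, went from 96.5 and 79.5 CPM to 322 and 343 CPM (rise of 1.92 ± 0.26, adjusted p = 0.000304). Kif5b and Mtfr2 kept their calls when any 1 of the 4 libraries was left out. Arrdc1, an arrestin-domain protein gene, went from 160 and 169 CPM to 427 and 366 CPM (adjusted p = 0.00369), and Aldh9a1, an aldehyde dehydrogenase gene, from 156 and 166 CPM to 336 and 401 CPM (adjusted p = 0.0199). Aldh9a1 lost its call without any 1 library (0.0572 to 0.24), Arrdc1 without Tet3 KO 1 (0.0746) or WT 5 (0.0816) and Me1 without Tet3 KO 2 (0.0582) or WT 5 (0.18). For Me1 the fit over the 22 libraries with a stated batch gave a log2 difference of 1.62 that was not called (adjusted p = 0.42).

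Gene groups of the oocyte were described by lists, whose counts stand beside 1.02% of all tested genes called and 8.55% at an unadjusted p below 0.05. In the DNA methylation list 1 of 29 tested members was called, Dnmt3a, and 5 had an unadjusted p below 0.05, with a list median of -0.05 beside -0.001 over all genes. Of 24 tested imprinted genes with maternal methylation, whose imprints DNMT3A lays down in the oocyte, 0 were called by edgeR and 1 had an unadjusted p below 0.05, with a median of 0.04. Within the list of germline genes that are silenced by promoter methylation in other cells, 1 of 33 tested members was higher and 3 were lower, with a median of -0.01 and 12 at an unadjusted p below 0.05. Tuba3b, a testis-type alpha tubulin gene, fell from 74.0 and 98.8 CPM to 7.44 and 6.11 CPM (log2 difference -3.66 ± 0.36, adjusted p = 1.07e-05). Its reads can be shared with the near-identical Tuba3a, which had 1239 and 1090 CPM in WT and 610 and 541 CPM in Tet3 KO (adjusted p = 0.0943). Hormad1, a protein of meiotic chromosome axes, fell from 42.0 and 35.5 CPM to 12.1 and 5.56 CPM (adjusted p = 0.00191), and without Tet3 KO 2 it was not called (0.071). Mael, a factor of the piRNA pathway, fell from 211 and 157 CPM to 75.7 and 74.2 CPM (adjusted p = 0.00803), and was not called without Tet3 KO 1 (0.113), Tet3 KO 2 (0.121) or WT 5 (0.156). Pdha2, the testis form of a pyruvate dehydrogenase subunit, rose from 0.712 and 2.41 CPM to 10.5 and 14.5 CPM (adjusted p = 0.00823), and was not called without Tet3 KO 2 (0.108) or WT 5 (0.175).

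Lists of the stored maternal programme were read against the same shares. In the subcortical maternal complex Ooep was the 1 of 9 members called, 2 had an unadjusted p below 0.05, and the median of the list was 0.06. None of 25 tested maternal-effect genes, 48 meiotic maturation genes, 11 zona pellucida and egg surface genes or 38 histone modifiers was called by edgeR, with 1, 1, 0 and 1 of them at an unadjusted p below 0.05. The zona gene Zp2, for example, had 2123 and 1795 CPM in WT and 1758 and 1659 CPM in Tet3 KO. Mael was the 1 of 25 tested genes of the small RNA pathways that was called, and 4 had an unadjusted p below 0.05. Of 9 tested genes of the 2-cell embryo 0 were called and 1 had an unadjusted p below 0.05, and the list median was -0.36.

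Stress and metabolic lists differed in their counts. Among 29 tested lipid droplet and triglyceride genes Pnpla3 alone was called and 4 had an unadjusted p below 0.05, with a list median of 0.07. Plin2, which coats lipid droplets, had 8.90 and 7.53 CPM in WT and 18.7 and 14.4 CPM in Tet3 KO (adjusted p = 0.357), and Fitm2, which helps droplets to form, had 1.42 and 4.22 CPM in WT and 7.44 and 10.6 CPM in Tet3 KO (adjusted p = 0.269). In the glutathione and antioxidant list 1 of 29 was higher, Mt1, and 2 were lower, Mgst3 and Gsta4, and 6 had an unadjusted p below 0.05. Mt1 was low in WT alone and had a like level in all groups with Zp3-Cre. Mt2, another metallothionein gene, had 0 and 1 count in WT and 0 and 1 count in Tet3 KO. The cause of the Mt1 difference was not tested. Gsta4, an alpha-class glutathione transferase, had 315 and 201 CPM in WT and 115 and 110 CPM in Tet3 KO (adjusted p = 0.0251), and it was not called without Tet3 KO 1 (0.228), Tet3 KO 2 (0.267) or WT 5 (0.486). In the apoptosis list 3 of 23 had an unadjusted p below 0.05 and 1 was called: Bik, a BH3-only cell death gene, fell from 92.5 and 79.2 CPM to 37.2 and 27.5 CPM (adjusted p = 0.0174), and was not called without Tet3 KO 1 (0.0572), Tet3 KO 2 (0.287) or WT 5 (0.156). Lists of p53 and DNA damage genes (29 tested), the unfolded protein response (24), base excision repair (25), heat shock (20) and cholesterol synthesis (22) held no call, with 1, 1, 1, 0 and 1 genes at an unadjusted p below 0.05. The same held for 72 ribosomal protein genes, with a median of -0.13, and 73 respiratory chain genes, with a median of -0.25, with 2 and 3 at an unadjusted p below 0.05.

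Markers of other ovarian cells were read beside these groups. Of 8 tested granulosa and cumulus markers 1 was called, Inha, the inhibin alpha subunit, with 0 and 0.301 CPM in WT and 12.6 and 4.45 CPM in Tet3 KO, a ratio of 53.2 with a counting interval of 9.21 to 2132 (adjusted p = 0.0199). It lost its call without Tet3 KO 1 (0.228), WT 5 (0.238) or WT 6 (0.115). Inha was also at 9.23 and 14.5 CPM in LCD KO, with 0 and 2.19 CPM in Dnmt3a KO and 1.41 and 3.81 CPM in DKO. Of these 8 markers 3 had an unadjusted p below 0.05, and the median log2 difference was 0.36. They were Inha, Gja1, a gap junction gene, with 0 and 0 CPM in WT and 2.57 and 1.39 CPM in Tet3 KO (adjusted p = 0.288), and Hsd3b1, a steroid dehydrogenase gene, with 1.07 and 1.51 against 5.13 and 3.06 CPM (adjusted p = 0.495). Cyp19a1, the aromatase of granulosa cells, had 38.1 and 34.3 CPM in WT and 39.8 and 30.3 CPM in Tet3 KO. The summed level of the granulosa list was 376 and 413 CPM in WT and 414 and 394 CPM in Tet3 KO. Its part in the results was not tested. Theca and stroma markers summed to 8.19 and 6.93 CPM in WT and 6.67 and 3.89 CPM in Tet3 KO, and blood and immune markers, 13 of which were at 0 in all 4 libraries, to 68.0 and 78.3 CPM and to 90.1 and 80.9 CPM. Oocyte markers summed to 35860 and 30500 CPM in WT and 32302 and 27781 CPM in Tet3 KO.

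Dnmt3a KO, like DKO, had a Dnmt3a level below that of WT, and 34 of 11160 genes (0.305%) were called between it and the libraries labelled Tet3 KO, 7 higher (0.0627%) and 27 lower (0.242%) in Tet3 KO. At an unadjusted p below 0.05 there were 1113 genes (9.97%). Comparisons with WT and with Dnmt3a KO share the Tet3 KO libraries, so the values are set side by side and no overlap of the calls is read. Pnpla3 was lower in Tet3 KO than in Dnmt3a KO by 6.97 ± 0.31 on the log2 scale (difference -6.97, adjusted p = 9.52e-11). The count of calls was 8 without Tet3 KO 1, 15 without Tet3 KO 2 and 13 without Dnmt3a KO 2.

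Other named genes were lower in Tet3 KO than in Dnmt3a KO. Rpl37rt had 87.1 and 74.4 CPM in Dnmt3a KO against 3.59 and 6.39 in Tet3 KO, a log2 difference of -4.01 ± 0.29 (adjusted p = 2.45e-07). Gsto2 had 39.2 and 41.3 CPM in Dnmt3a KO against 0 and 1.39 in Tet3 KO, a log2 difference of -5.83 ± 0.65 (adjusted p = 0.000419). The fit over the 22 libraries with a stated batch did not call Gsto2 here (adjusted p = 0.147). Pdgfrl, without a count in Tet3 KO, had 13.6 and 7.54 CPM in Dnmt3a KO, so Tet3 KO was at least 24.5-fold lower (adjusted p = 0.00452), and without Tet3 KO 1 it was not called (0.0565). Pak3 had 11.1 and 15.6 CPM in Dnmt3a KO, a log2 difference of -4.26 ± 0.71 (adjusted p = 0.0103), and was not called without Tet3 KO 1 (0.19), Tet3 KO 2 (0.0921) or Dnmt3a KO 2 (0.125). Cldn34d had 5.37 and 6.56 CPM in Dnmt3a KO, a ratio of 45.9 with a counting interval of 7.77 to 1856 (adjusted p = 0.0234), and its call was lost without any 1 library (0.0517 to 0.219).

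Gpat3 and Manba differed the other way round, in that the libraries labelled Tet3 KO were at the WT level. Gpat3, an acyltransferase of triglyceride synthesis, had 1.8 and 1.95 CPM in Tet3 KO and 1.78 and 1.81 CPM in WT. It had 45.0 and 49.1 CPM in Dnmt3a KO, 37.6 and 58.0 CPM in DKO and 8.88 and 11.6 CPM in LCD KO. Its log2 difference was -4.63 ± 0.38 from Dnmt3a KO (adjusted p = 1.45e-06) and 0.06 ± 0.55 from WT (adjusted p = 0.995). In the fit over 22 libraries the difference from Dnmt3a KO was not called (adjusted p = 0.171). Manba, a lysosomal mannosidase gene, had 0.513 and 0.834 CPM in Tet3 KO, 1.78 and 0.602 CPM in WT and 11.6 and 10.5 CPM in Dnmt3a KO (log2 difference from Dnmt3a KO -3.96 ± 0.71, adjusted p = 0.0155), and its call was lost without any 1 library (0.076 to 0.372).

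Of the genes higher than in Dnmt3a KO, Bfsp1 was at 0 in Dnmt3a KO and at least 87.5-fold higher in Tet3 KO (adjusted p = 2.68e-06). The fit over 22 libraries did not call it here (adjusted p = 0.086). Cnbd2, a gene with a cyclic nucleotide binding domain, had 20.8 and 26.4 CPM in Tet3 KO, 7.84 and 3.65 CPM in Dnmt3a KO and 6.76 and 5.72 CPM in WT (adjusted p = 0.0262 against Dnmt3a KO). Rbbp9, a serine hydrolase gene, had 29.8 and 27.8 CPM in Tet3 KO and 10.7 and 6.08 CPM in Dnmt3a KO (adjusted p = 0.0257). Cnbd2 and Rbbp9 were also called higher than WT (adjusted p = 0.0183 and 0.00146). The next genes, Cds2 (0.184), Entpd1 (0.107) and Arid5b (0.616), were not called against WT. Cds2, an enzyme of phosphatidylinositol synthesis, had 58.0 and 45.0 CPM in Tet3 KO, 18.6 and 14.3 CPM in Dnmt3a KO and 25.3 and 30.1 CPM in WT (adjusted p = 0.013 against Dnmt3a KO). Entpd1, an ectonucleotidase gene, had 84.2 and 77.8 against 36.7 and 30.6 CPM in Dnmt3a KO (adjusted p = 0.0448), with 39.5 and 44.9 CPM in WT. Arid5b, a chromatin factor gene, had 191 and 164 against 67.7 and 89.2 CPM in Dnmt3a KO (adjusted p = 0.0262), with 116 and 144 CPM in WT. Entpd1 (0.0926 to 0.43) and Arid5b (0.06 to 0.441) lost their calls without any 1 library. Cnbd2 and Rbbp9 lost them without Tet3 KO 1 (0.132 and 0.256), Tet3 KO 2 (0.266 and 0.151) or Dnmt3a KO 2 (0.306 for both), and Cds2 without Tet3 KO 1 (0.239) or Dnmt3a KO 2 (0.152).

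**Figure D4:**
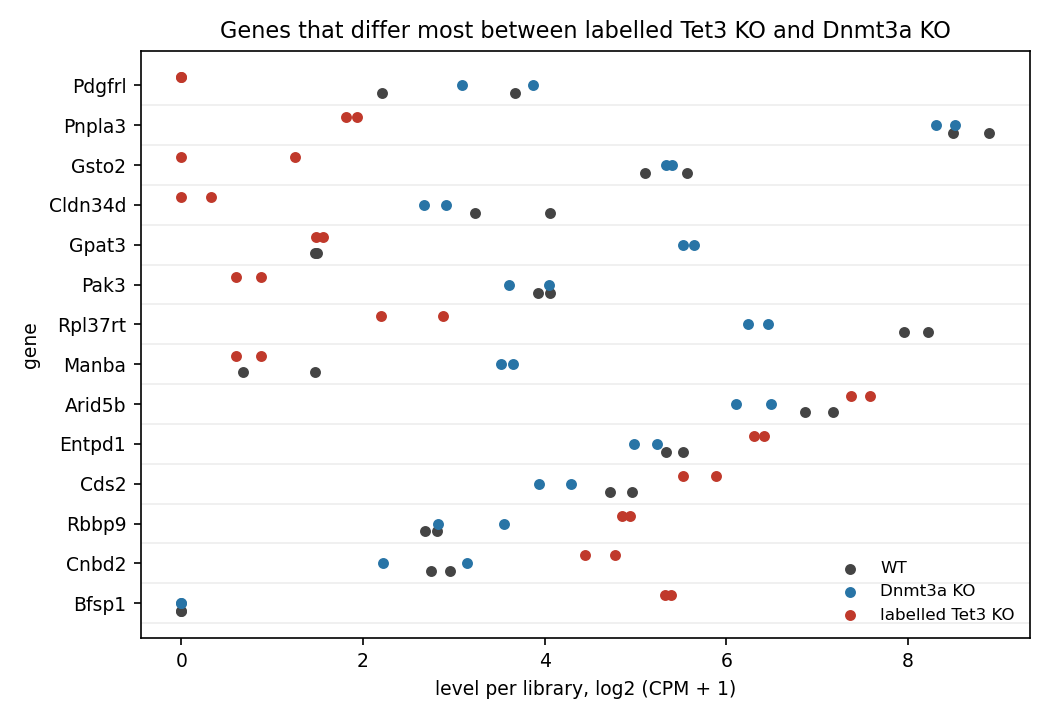
Levels per library (log2 of CPM + 1, horizontal axis) of the 14 named genes that were called between the libraries labelled Tet3 KO (red) and Dnmt3a KO (blue), with WT (black); each point is a library. Pnpla3, Gsto2 and Rpl37rt are far to the left in red alone, Gpat3 and Manba are far to the right in blue alone, and Bfsp1 is at 0 in blue and black.

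Other genes that changed against WT had values in Dnmt3a KO that did not pass the test of difference from Tet3 KO, which does not show that they were alike. Pxdn had no count in Dnmt3a KO and 1 count in Tet3 KO. Npl had no count in either group. Fmo6 had 5.37 and 2.43 CPM in Dnmt3a KO, with a log2 difference of Tet3 KO from it of -1.07 ± 0.57 (adjusted p = 0.552). Tuba3b had 15.7 and 7.05 CPM in Dnmt3a KO (difference -0.68 ± 0.39, adjusted p = 0.573), Qpct 14.4 and 25.3 CPM (0.24 ± 0.38, adjusted p = 0.868) and Me1 892 and 1074 CPM (-0.20 ± 0.31, adjusted p = 0.861). Kif5b had 90.4 and 117 CPM in Dnmt3a KO, between its levels in WT and Tet3 KO, with a difference of 0.91 ± 0.23 from Tet3 KO (adjusted p = 0.141).

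A further contrast set the libraries labelled Tet3 KO against the mean of the 3 other groups with Zp3-Cre, so that Cre was on both sides. WT libraries did not enter this contrast, but they entered the common estimate of the spread, the scaling and the filter on low counts. In it 182 genes (1.63%) were called, 94 higher (0.842%) and 88 lower (0.789%). The count was 29 without Tet3 KO 1, 28 without Tet3 KO 2, 115 without LCD KO 6 and 101 without DKO 2. Pnpla3 had the largest fitted fall among named genes, with a log2 difference of -7.33 (adjusted p = 2.39e-11), and Prr15l came next with -6.99. Gsto2 differed by -5.92 (adjusted p = 0.000143) and Rpl37rt by -5.13 (adjusted p = 1.93e-09). Pdgfrl, at least 15.2-fold lower, lost its call without Tet3 KO 1 (adjusted p = 0.145) or Tet3 KO 2 (0.109). Pak3, with a difference of -4.30 (adjusted p = 0.0017), lost it without Tet3 KO 1 (0.0639).

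Prr15l, a gene of little known function, had no count in Tet3 KO, 1.78 and 7.23 CPM in WT, 5.37 and 0.972 CPM in Dnmt3a KO, 8.88 and 15.6 CPM in LCD KO and 4.53 and 1.53 CPM in DKO. It was at least 15.6-fold lower in Tet3 KO than in the other groups with Zp3-Cre (adjusted p = 0.03), and was not called without Tet3 KO 1 (0.276), Tet3 KO 2 (0.202) or DKO 1 (0.0551). Myocd, a cofactor of smooth muscle and heart genes, had 3 counts in Tet3 KO and 176 in those groups, a ratio of 22.9 with a counting interval of 7.70 to 112 (adjusted p = 0.00981), and lost its call without Tet3 KO 1 (0.235). Of the 176 Myocd counts 92 came from LCD KO 7 alone. Myocd had 9.23 and 24.7 CPM in LCD KO, 4.13 and 6.08 CPM in Dnmt3a KO, 4.53 and 2.67 CPM in DKO and 4.98 and 6.63 CPM in WT. Tet3 KO was called lower than WT in Myocd (adjusted p = 0.0361) but not lower than Dnmt3a KO (adjusted p = 0.109). The rises included Lrrc8d, a subunit of volume-regulated anion channels, with 49.0 and 45.9 CPM in Tet3 KO. Its level was 38.1 and 35.8 CPM in WT and 28.9 and 40.1 CPM in Dnmt3a KO, but 4.26 and 8.06 CPM in LCD KO and 5.09 and 9.15 CPM in DKO. The call of Lrrc8d (difference 2.04, adjusted p = 0.000143) was made with low values in LCD KO and DKO but not in Dnmt3a KO. Fam124a had 12.3 and 13.3 CPM in Tet3 KO, 10.7 and 11.4 CPM in Dnmt3a KO and at most 1.70 CPM in each LCD KO and DKO library (adjusted p = 0.00906), and was not called without Tet3 KO 1 (0.0839) or Tet3 KO 2 (0.104).

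The genes called against WT were then followed in libraries outside that contrast. DKO and LCD KO both carry Zp3-Cre and the floxed LCD allele and differ in floxed Dnmt3a; their libraries entered the common estimate of the spread, the scaling and the filter on low counts, but not the contrast that chose the genes. The 41 genes that rose in the libraries labelled Tet3 KO had a median log2 difference of DKO from LCD KO of 0.74, and 35 of them were positive. The 73 genes that fell had a median of -0.54, and 61 were negative. All 11160 tested genes had a median of 0.01, 51.7% positive and 48.2% negative. Of the 41 rises 8 were called higher in DKO than in LCD KO, and of the 73 falls 5 were called lower and 2 higher, against a background of 0.296% of all genes called in either direction (0.206% higher and 0.0896% lower), and of 6.89% at an unadjusted p below 0.05. When the genes were chosen without Tet3 KO 1 or without Tet3 KO 2, the median of the rises was 1.17 and 1.14, and without the filter it was 0.62.

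Single genes showed both patterns. Bfsp1 was at 0 in both LCD KO libraries and at 31.4 and 33.9 CPM in DKO (adjusted p = 1.08e-05), and Mtfr2 went from 23.1 and 37.6 CPM in LCD KO to 581 and 418 CPM in DKO (log2 difference 4.03, adjusted p = 2.62e-07). Tuba3b had 57.5 and 76.3 CPM in LCD KO and 3.40 and 5.34 CPM in DKO (log2 difference -3.96, adjusted p = 1.71e-05). Pnpla3 was lower in DKO than in LCD KO by a log2 difference of -1.22 (adjusted p = 0.0126), with 300 and 345 CPM left. Slc4a3 went against its fall in Tet3 KO: it had 4.26 and 3.22 CPM in LCD KO and 28.6 and 50.3 CPM in DKO (log2 difference 3.39, adjusted p = 0.000732). Me1, with 153 and 352 CPM in LCD KO and 324 and 252 CPM in DKO, did not pass the test (adjusted p = 0.984).

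**Figure D5:**
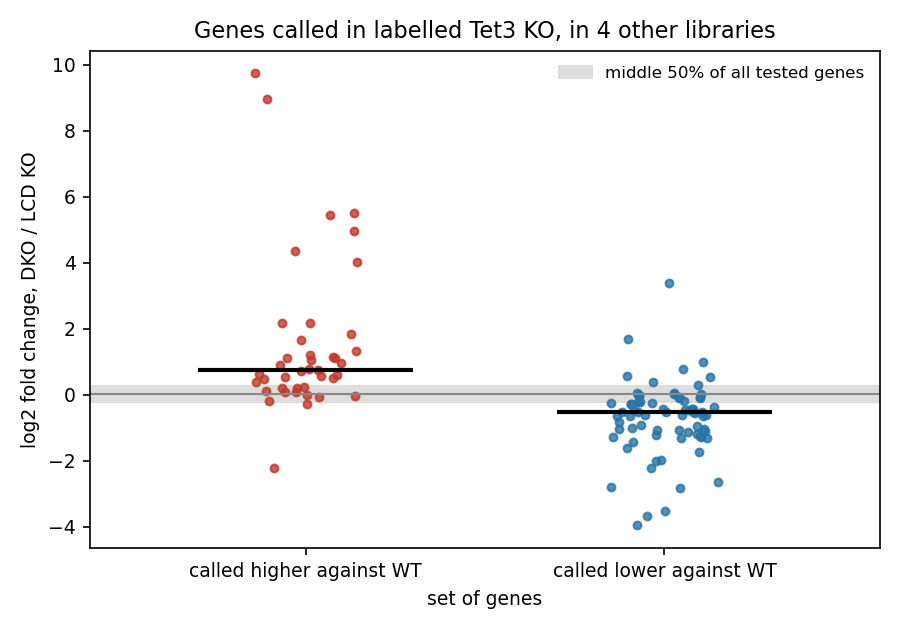
Log2 fold change of DKO over LCD KO (vertical axis) for the 41 genes called higher (red) and the 73 called lower (blue) in the libraries labelled Tet3 KO against WT; each point is a gene, black bars are medians (0.74 and -0.54) and the grey band is the middle 50% of all tested genes. Most red points lie above 0 and most blue points below, with single genes on the other side in both sets.

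Some of the called genes lay next to each other in the genome. RefSeq positions were found for 113 of the 114 genes, and 8 pairs had no tested gene between them. The share of such pairs over all tested genes was not computed, so the pairs do not show that called genes cluster. In 3 pairs both genes fell: Fmo4 and Fmo6, Dph7 and Mrpl41, and BC039771 and Rin2. In the other 5 pairs the neighbours moved in opposite directions. Me1 rose by 1.76 on the log2 scale and its neighbour Rwdd2a had a difference of -2.13, and Aldh9a1 rose by 1.19 beside Mgst3 at -1.35. Qpct rose by 3.82 beside Cdc42ep3, an effector of CDC42, at -2.53. Zfp961 rose by 1.16 beside the tropomyosin gene Tpm4 at -2.83, and Galnt13, a glycosyltransferase gene, rose by 2.18 beside BB557941 at -1.26. These pairs were picked after their values were seen. Of the 114 called genes 46 overlap another RefSeq gene model, a share that was not computed over all tested genes. Bfsp1 overlaps 3 models, and Pnpla3, Dnmt3a and Tet3 overlap 2 each. Since the strand setting of the counting was not given, reads of overlapping genes cannot be told apart in these genes.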

How the data were processed

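The values were raw read counts per gene, as deposited by the authors in 1 table, with no normalisation. The submitters' processing notes name Trim Galore 0.5.0, HISAT2 2.1.0, featureCounts 1.6.4 and the build mm9; annotation, strandedness and multi-mapped reads are not given in the sources used here. Of 24542 features 92 ERCC spike-in rows, with 1 count in batch 3, were left out. The 10 libraries of batch 3 were fitted with edgeR 4.0.16 (R 4.3.3): TMM factors (0.929 to 1.06), filterByExpr by group, robust quasi-likelihood F test, group means only, 5 residual degrees of freedom. Levels are CPM computed from the counts. A group at 0 was given a floor of 3 counts over the group, and 1 to 3 counts an exact 95% interval. Named genes are the 12 largest rises and falls against WT with a regular symbol, at least 1 CPM in the higher group and no overlap of libraries, the 6 most abundant of each, list members called (up to 4 a list) and up to 8 rises and falls of the other contrasts. The members of the comparison, the rule and all 29 gene lists were chosen with earlier results of these data known, and lists are described by counts and medians without a test. DESeq2 1.42.0, other size factors, no filter, other sets of libraries and leaving out each library were tried. The code was tested on simulated data.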

Additional observations from a re-analysis of the deposited data

How the results depend on the processing

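Against WT, the 114 calls became 116 with RLE size factors, 154 with DESeq2, 162 over the 22 libraries with group and batch terms, 157 with 1 mean per group and batch, 233 without the filter on low counts and 185 with only the 4 libraries; leaving out 1 library gave 56 to 92. Against Dnmt3a KO, the 34 calls became 37, 55, 32, 49, 116 and 17 in the same order, and 8 to 25 without 1 library. Against the mean of the other Zp3-Cre groups, the 182 calls became 181, 242, 253, 271 and 394, and 28 to 216 without 1 library; DESeq2 put 98 of its 242 calls higher (40.5%, beside 51.6% of 182). The cause of these shifts was not tested.

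Of the 114 genes 31 were called in each of the 10 alternatives, Pnpla3 among them, and 0 changed sign. Of the 45 values of named genes against WT, 9 lost their call over the 22 libraries with group and batch terms (Aldh9a1, Arl8a, Gsta4, Inha, Me1, Sapcd2, Slc17a6, Slc4a3 and Vangl1). The log2 difference of Dnmt3a was -1.64 to -1.23 when 1 library was left out. In DKO against LCD KO the median of the rises was 0.62 without the filter and 0.51 to 1.17 without 1 library, and that of the falls -0.77 over the 22 libraries with group and batch terms and -0.70 to -0.44 without 1 library. A lone library left in a group was assumed to vary like the other groups.

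No paired analysis was possible because WT 5 and 6 share no replicate number with Tet3 KO 1 and 2. Tet3 KO, Dnmt3a KO and DKO share the numbers 1 and 2, and the deviations of same-numbered libraries correlated at 0.308, 0.0962 and -0.00132, and with 2 numbers and no label that pairs them the pairing is not established. A replicate block over these 6 libraries called 63 genes against Dnmt3a KO, and the same 6 libraries without it, an alternative added after seeing the data, called 32. With 2 pools a group and 2558479 to 4144414 counts, genes of a few CPM rest on a few counts.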

Other observations

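Outside the rule for naming genes, and picked after their values were seen, further genes separated the libraries labelled Tet3 KO from WT. Mphosph9, a gene for a centriole protein, had 88.6 and 69.3 CPM in WT and 6.16 and 11.1 CPM in Tet3 KO (adjusted p = 8.34e-05), beside 42.5 and 65.6 CPM in Dnmt3a KO. Got1l1, an aspartate aminotransferase-like gene, had 22.4 and 26.2 CPM in WT, 3.08 and 2.78 CPM in Tet3 KO (adjusted p = 0.000292) and 3.30 and 1.94 CPM in Dnmt3a KO. Tex9, a testis-expressed gene, had 3.20 and 4.52 CPM in WT, 21.3 and 28.9 CPM in Tet3 KO (adjusted p = 0.0012) and 26.0 and 35.7 CPM in Dnmt3a KO. These 3 genes were called in each of the 10 alternatives.

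Zhx1, a zinc finger and homeobox gene, differed in direction by the group it was set against. It had 7.47 and 7.23 CPM in WT, 22.6 and 21.1 CPM in Tet3 KO, 16.5 and 13.4 CPM in Dnmt3a KO, 75.3 and 57.0 CPM in LCD KO and 120 and 76.3 CPM in DKO. In Tet3 KO it was thus higher than WT (adjusted p = 0.0172) and lower than the mean of the other Zp3-Cre groups (adjusted p = 0.0309). Against Dnmt3a KO alone it was not called (adjusted p = 0.545). Its call against WT was made in 5 of the 10 alternatives.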
